A study of Mus musculus with 29 samples.

Results

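Broad H3K4me3 domains are the stretches where a single called peak of trimethylation of lysine 4 of histone H3 spans several kilobases. They were taken in untreated RAW264.7 cells as the deposited H3K4me3 peaks on chromosomes 1 to 19 and X with a width of at least 4000 bp. This rule chose 1346 of 21676 peaks, or 6.21%. The domains were selected on their untreated width, so that width is a description and supports nothing. They were set against the 6211 H3K4me3 peaks of 1000 to 2000 bp of the same library, called narrow peaks here.

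RAW264.7 is a mouse macrophage-like cell line transformed by the Abelson leukaemia virus. Cells were left untreated or received lipopolysaccharide (LPS), a component of bacterial outer membranes sensed by macrophages, at 100 ng/ml for 1 h or for 4 h. Other cells received flavopiridol, an inhibitor of the elongation kinase CDK9, for 1 h, either alone or ahead of LPS for 4 h. Chromatin immunoprecipitation and sequencing was done for 7 histone marks in untreated, LPS 1 h and LPS 4 h cells, for H3K4me1 and H3K36me2 also with flavopiridol, and for the transcription factor PU.1 in untreated cells only. Of the 29 samples, 26 have a peak list used here and 3 are input chromatin with no list used here. The inputs are from untreated, LPS 1 h and LPS 4 h cells, and none is from cells given flavopiridol.

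Each mark has a single library in each condition. The spread between cultures is therefore unknown, p-values are not given, and every difference between conditions is a difference between single libraries. Macrophage marker genes were not checked, since no gene annotation of the build was used here. A mark present in fewer cells and a weaker mark in every cell cannot be told apart in such pools. Intervals in square brackets are at 95% and cover counting error over regions only, and regions are not independent replicates. A mark was called at a region when its peaks covered at least 50% of the region's length. The share of all 21676 untreated H3K4me3 peaks that met the same rule is given as the background beside each first count.

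H3K4me3 is deposited around the starts of active genes, and most genes carry it as a short peak. Long domains of the mark are known from many cell types, where they tend to lie at genes that are transcribed steadily and at genes that define the cell's identity. H3K27ac marks active promoters and enhancers, H3K79me2 is laid down by DOT1L over the first part of transcribed genes, and H3K36me3 follows over their bodies. H3K4me1 is typical of enhancers and of the edges of promoters, H3K36me2 is found within and between genes, and H3K27me3 is the Polycomb mark of silenced genes. PU.1 is the lineage factor of macrophages and binds promoters and enhancers.

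The broad domains held 7.39 Mb, which is 19.3% of the length under untreated H3K4me3. Their median width was 4974.5 bp, with quartiles of 4412.8 and 5991.5 bp and a maximum of 18202 bp. The narrow peaks had a median of 1486 bp. By width, 688 domains had 4000 bp to under 5000 bp, 323 had 5000 to under 6000 bp, 247 had 6000 to under 8000 bp and 88 had 8000 bp or more, and 37 reached 10000 bp. Most domains thus lay close to the threshold. The 5 members nearest to it spanned 4002 to 4007 bp and the 5 peaks just under it 3998 or 3999 bp. H3K79me2 covered 75.2%, 0%, 100%, 83.8% and 78.0% of those members, and 61.8%, 83.1%, 61.3%, 51.8% and 61.5% of the peaks just under the limit. The limit therefore cuts through a continuous range.

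Domains were found on every chromosome used. Chromosome 11 had the largest share of its H3K4me3 peaks as broad domains, 136 of 1688 or 8.06% [6.85, 9.45], and chromosome 16 the smallest, 33 of 735 or 4.49% [3.21, 6.24]. Another H3K4me3 peak lay within 5 kb of 28.8% of domains and of 22.3% of narrow peaks. The median gap from one broad domain to the next broad domain was 301.2 kb, and 129 domains, or 9.58%, had another within 20 kb.

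H3K27ac covered nearly all of the broad domains. It was called at 1324 of 1346 domains, or 98.4% [97.5, 98.9], against 83.5% [82.6, 84.4] of narrow peaks and a background of 80.5%. The difference was 14.8 percentage points [13.6, 15.9]. In 802 domains, or 59.6%, the acetylation covered every base, against 38.4% of narrow peaks. The H3K27ac peak over a domain had a median width of 7114 bp, longer than the median domain, while the one over a narrow peak had 1734.5 bp. Each region was cut along its length into 10 equal pieces. Acetylation covered 87.4% of the pair of end pieces of a domain on average, against 97.8% of its middle pair. In narrow peaks the same values were 57.8% and 87.0%. Against the 6224 intermediate peaks, over 2000 and under 4000 bp wide, the difference was 1.56 points [0.639, 2.29], so most of the contrast lay between the narrow peaks and these.

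**Figure D1:**
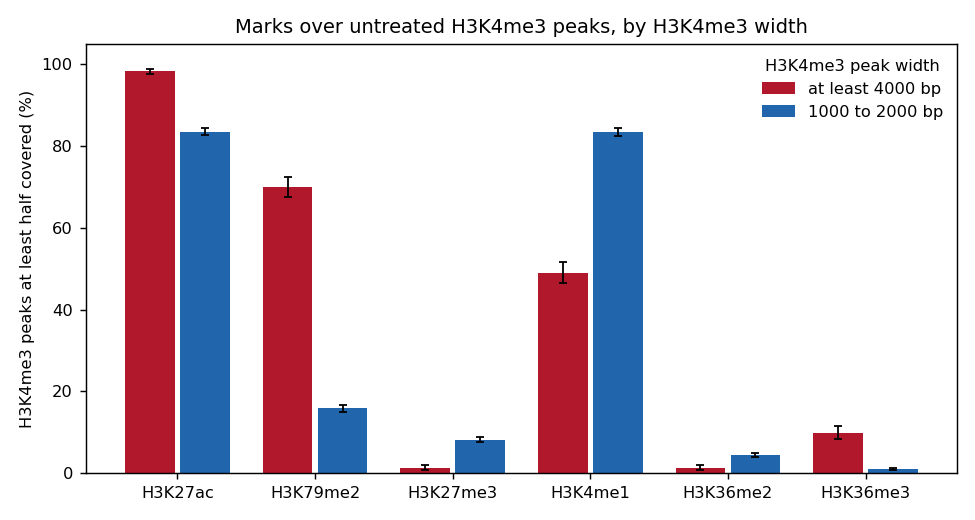
Share of untreated H3K4me3 peaks (vertical axis, percent) of which at least 50% of the length was covered by each of 6 histone marks. Red bars are the 1346 broad domains, blue bars the 6211 peaks of 1000 to 2000 bp, and whiskers are 95% Wilson intervals. H3K79me2 shows the widest gap, 70.1% against 15.8%.

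H3K79me2 separated the broad domains from narrow peaks more than any other mark measured. It was called at 943 domains, or 70.1% [67.6, 72.4], against 15.8% [14.9, 16.7] of narrow peaks and a background of 24.7%. The difference was 54.3 percentage points [51.6, 56.8] over the whole length. Over the central 1000 bp the shares were 69.6% and 15.9%. Any overlap was seen at 92.4% of domains and 30.1% of narrow peaks. Set against the intermediate peaks, of which 45.5% were called, the difference was 24.5 points [21.7, 27.2].

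The H3K79me2 peaks over domains had a median width of 11467 bp, against 3770.5 bp over narrow peaks, and they mostly lay to one side. In the 5 kb to the left and to the right of each region, H3K79me2 covered at least 50% on a single side at 860 domains, or 63.9%, on both sides at 10.1% and on neither at 26.0%. For narrow peaks the shares were 12.7% on a single side, 7.21% on both and 80.1% on neither. H3K36me3 reached the same cover on a single side at 57.4% of domains and 27.4% of narrow peaks. Where both marks were on a single side, it was the same side at 542 of 568 domains, or 95.4% [93.4, 96.9], and at 339 of 389 narrow peaks, or 87.1% [83.5, 90.1].

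H3K36me3 overlapped 738 domains, or 54.8%, against 4.98% of narrow peaks, and covered 15.4% of domain length on average, with 21.8% in the end pieces and 12.4% in the middle pieces. It seldom covered as much as 50%. It was called at 131 domains, or 9.73%, against 1.01% of narrow peaks and a background of 1.96%, a difference of 8.72 points [7.22, 10.4]. Of those 131 domains, as grouped by every mark called there, 66 also carried H3K27ac, H3K79me2 and H3K4me1, and 57 carried H3K27ac and H3K79me2 without H3K4me1. None of the narrow peaks had that last combination.

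H3K4me1 framed the broad domains and was thin in their middles. It covered 86.2% of their end pieces on average and 33.6% of their middle pieces, while in narrow peaks the values were 87.0% and 83.6%. Over the central 1000 bp it was called at 33.1% of domains and 83.5% of narrow peaks. Over the whole length it was called at 49.0% of domains and 83.4% of narrow peaks, with a background of 67.8%. That difference was -34.4 points [-37.2, -31.6]. By the same call it turned sign against the intermediate peaks, of which 42.0% were called, and was 7.07 points [4.13, 10.0]. Mean coverage did not turn, at 51.4% of domains and 58.6% of intermediate peaks. The median domain was covered over 49.4%, close to the limit of the call. At 1068 domains, or 79.3%, at least 2 separate H3K4me1 peaks overlapped the domain, against 0.757% of narrow peaks. A narrow peak has less room for 2 of them, and this contrast does not allow for width. In the 5 kb flanks H3K4me1 covered 60.4% around domains and 36.9% around narrow peaks.

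H3K36me2 touched many domains but covered little of them. It overlapped 58.8% of domains and 29.9% of narrow peaks, and covered 9.18% and 6.99% of them on average. It was called at 1.26% of domains and 4.30% of narrow peaks, with a background of 8.43%, and a difference of -3.04 points [-3.75, -2.15]. The sign of that difference turned over the central 1000 bp, with 4.75% of domains and 4.31% of narrow peaks called, and also with any overlap and against the intermediate peaks, where it was 29.0 and 0.395 points. In the 5 kb flanks it covered 43.1% around domains and 34.2% around narrow peaks.

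**Figure D2:**
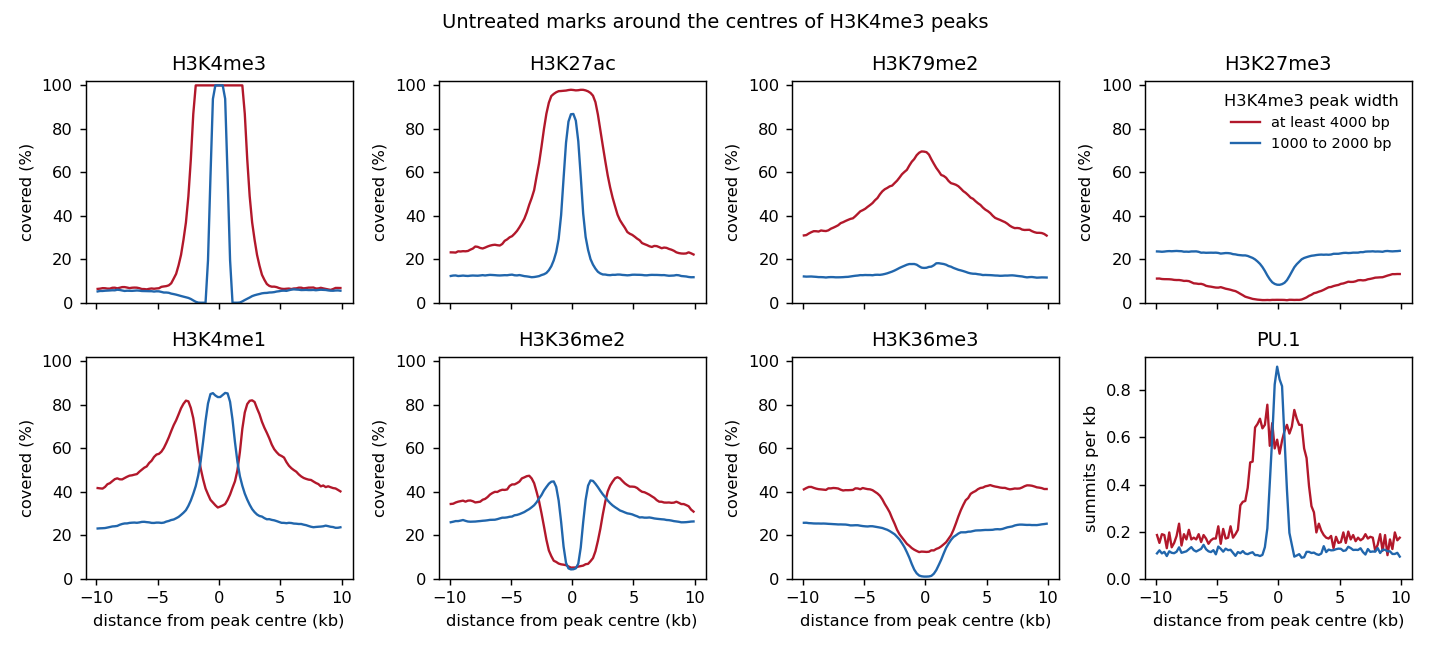
Coverage by each histone mark (vertical axes, percent of each 200 bp step, mean over regions) and PU.1 summits per kb, against distance from the centre of the H3K4me3 peak in kb, in untreated cells. Red lines are the 1346 broad domains and blue lines the 6211 peaks of 1000 to 2000 bp. Sides are left and right on the chromosome, not upstream and downstream, so a mark on one side only of each region appears on both.

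H3K27me3 was rare in broad domains. It was called at 15 of 1346, or 1.11% [0.676, 1.83], against 8.15% [7.49, 8.85] of narrow peaks and a background of 8.19%. The difference was -7.03 points [-7.86, -6.06]. Against the intermediate peaks, of which 1.38% were called, it was -0.267 points [-0.811, 0.495]. The flanks were also lower in H3K27me3, with 7.60% covered around domains and 20.8% around narrow peaks. Most of these H3K27me3 calls rested on weak peaks. With H3K27me3 peaks below a deposited −log10 q of 5 left out, 0.0743% of domains and 1.01% of narrow peaks were called. The difference between the groups was then -0.940 points.

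By the set of marks called together, the most frequent kind of domain carried H3K27ac and H3K79me2 and no other of the 6 marks, with 444 domains or 33.0%. Only 1.71% of narrow peaks had this set. The next kind added H3K4me1, with 361 domains or 26.8%, against 12.5% of narrow peaks. H3K27ac with H3K4me1 alone, which made up 56.5% of narrow peaks, was found at 205 domains or 15.2%. H3K27ac alone was found at 165 domains or 12.3%, against 6.54% of narrow peaks. Just 8 domains, or 0.594%, had none of the 6 marks, against 3.65% of narrow peaks.

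Among the domains, the wider ones carried more of the marks of transcribed genes. From the class of 4000 bp to the class of 8000 bp and more, H3K79me2 was called at 66.1%, 72.8%, 72.9% and 83.0% of domains, and the intervals of the first and last class, [62.5, 69.6] and [73.8, 89.4], do not overlap. H3K36me3 was called at 4.94%, 11.1%, 15.0% and 27.3% over the same 4 classes. H3K4me1, typical of enhancers and promoter edges, was called at 43.0%, 49.8%, 59.9% and 62.5%. Its mean coverage rose less, from 50.2% to 51.4%, 53.7% and 54.3%, and lay close to the 50% limit of the call. H3K27ac was called at 97.8% of the first class and at all 88 domains of the last. Of the 15 domains with H3K27me3, 13 were in the narrowest class. PU.1 density showed no such order, at 0.630, 0.608, 0.657 and 0.631 summits per kb.

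**Figure D3:**
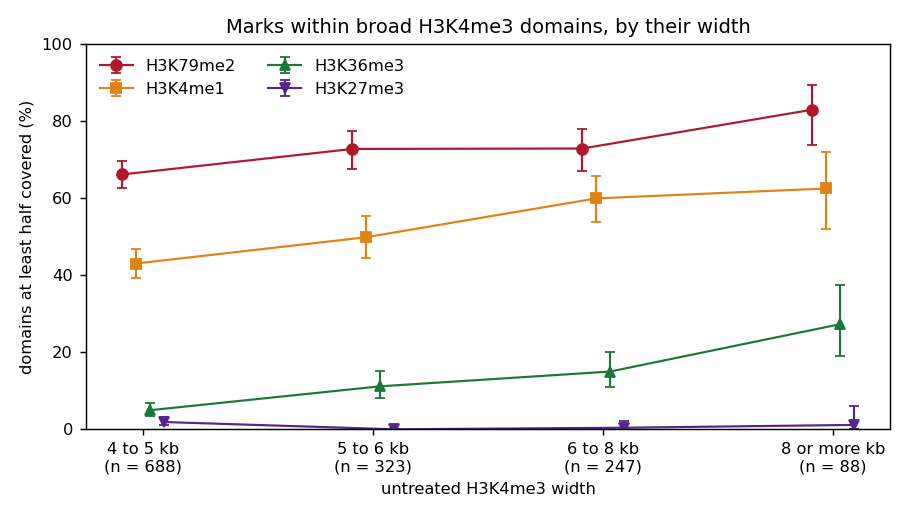
Share of broad H3K4me3 domains (vertical axis, percent) of which at least 50% was covered by H3K79me2, H3K4me1, H3K36me3 or H3K27me3, by untreated H3K4me3 width in 4 classes (horizontal axis, with the number of domains). Whiskers are 95% Wilson intervals. H3K36me3 is at 4.94% in the narrowest class and 27.3% in the widest.

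The 10 widest domains varied in these marks (positions are 1-based, build mm9). The widest lay on chromosome 2 at 79093788 to 79111989, spanned 18202 bp and held 8 PU.1 summits. H3K27ac covered 100% of it, H3K79me2 88.2%, H3K36me3 83.6% and H3K4me1 75.0%. The second, of 14833 bp on chromosome 2 (44959302 to 44974134), was covered 86.4% by H3K79me2 and 33.5% by H3K36me3. H3K36me3 covered at least 50% of 3 of the 10 and none of the domains on chromosome 3 (5211233 to 5224735) and chromosome 8 (87498278 to 87510813). H3K27ac covered all 10 of these domains in full and H3K27me3 none of them. H3K79me2 covered 22.6% of that domain on chromosome 8 and 58.7% to 100% of the other 9. Of the 10, 2 lay near each other on chromosome 19, at 5793827 to 5807445 and 5837980 to 5850697, and each of these held 12 PU.1 summits, the most of any domain.

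PU.1 summits were present in almost every broad domain, and their density was slightly lower than in narrow peaks. At least 1 summit fell in 1326 domains, or 98.5% [97.7, 99.0], against 75.5% [74.5, 76.6] of narrow peaks and a background of 71.7%. A wider region has more room for a summit, so the count per kb is the measure of density. It was 0.631 summits per kb [0.613, 0.649] in domains and 0.691 [0.674, 0.708] in narrow peaks, a difference of -0.0603 [-0.0851, -0.0353]. Against the intermediate peaks, which had 0.607 summits per kb, the sign turned and the difference was 0.0242 [0.00263, 0.0459]. Over the central 1000 bp, 48.9% of domains and 67.4% of narrow peaks held a summit.

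The median domain held 3 summits and the median narrow peak 1. There were 318 domains, or 23.6%, with 5 or more summits, and 20, or 1.49%, with none. Of narrow peaks, 2, or 0.0322%, had 5 summits, the most of any, and 24.5% had none. These counts are per region and do not allow for the greater width of domains. The authors' fold enrichment of the PU.1 peaks had a median of 6.60 in domains and 7.19 in narrow peaks. Domains with H3K79me2 called held 0.619 summits per kb [0.598, 0.641] and the other 403 domains 0.660 [0.625, 0.695]. The densest was a domain of 4114 bp on chromosome 7 (28114201 to 28118314), with 6 summits or 1.46 per kb. H3K27ac covered 60.3% of it, H3K4me1 98.5%, and H3K79me2 none of it.

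A small group of domains did not have the usual marks. In 22 of them H3K27ac was not called, and 9 of these carried H3K27me3. None of the 15 domains with H3K27me3 had H3K79me2, H3K36me2 or H3K36me3 called, although H3K79me2 covered up to 43.2% of the 5 with the most H3K27me3, while 6 of them also carried H3K27ac and 8 carried H3K4me1. These 15 held 18 PU.1 summits in all, and 11 of them held at least 1. On chromosome 15, a domain of 4758 bp at 35222849 to 35227606 was covered 100% by H3K27me3 in untreated cells, at LPS 1 h and at LPS 4 h, and by no H3K27ac at any of the 3. On chromosome 13, at 115246308 to 115251025, H3K27me3 was again at 100% throughout, and H3K27ac covered 0%, 0% and 13.2% in that order of conditions. H3K27me3 was still called at 12 of the 15 at LPS 1 h and 11 at LPS 4 h. The 15 calls and the values of 100% count H3K27me3 peaks of any strength. Without H3K27me3 peaks below a −log10 q of 5, 0.0743% of the 1346 domains were called in untreated cells.

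A further pair of domains stood apart in their values. The domain on chromosome 9 at 3015088 to 3019575 overlapped no peak of any other mark in any of the 3 conditions and no PU.1 summit, and had no H3K4me3 peak at LPS 4 h. The domain on chromosome 2 at 98502298 to 98507536 was covered 98.4% by H3K36me3, and its H3K27ac coverage was 36.9% in untreated cells, 100% at LPS 1 h and 38.4% at LPS 4 h. Its summed H3K4me3 width was 5239, 5278 and 1082 bp at the same times. These are 2 of the 1346 domains, and whether they are regular calls was not tested.

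Broad domains mostly kept their width after LPS. For this, each domain was given the full width of the LPS peak with the longest overlap, including bases outside the domain. That peak had at least 4000 bp at 1194 of the 1346 domains (88.7% [86.9, 90.3]) at LPS 1 h. At LPS 4 h it did so at 1228 (91.2% [89.6, 92.6]). Since members had to reach 4000 bp in the untreated list, some loss in any other list is built into the rule. By the same measure, 1154 domains were at least 4000 bp in all 3 lists, 40 at 1 h but not at 4 h, 74 at 4 h but not at 1 h, and 78 at neither. The domains of 4000 to under 5000 bp kept the limit in 81.4% of cases at 1 h and 85.2% at 4 h, and those of 8000 bp or more in 98.9% and 100%. The domain was broken into 2 peaks in 53 cases at 1 h (3.94%) and in 31 at 4 h (2.30%), against 1 and 0 narrow peaks. A narrow peak has little room for 2 separate peaks, so these counts cannot be compared between the groups. Wider domains were broken more often, but they also have more room for a break, and the shares do not allow for that. From the narrowest to the widest class the share was 1.45%, 3.41%, 6.88% and 17.0% at 1 h. At 4 h the shares were 1.02%, 1.86%, 4.05% and 9.09%.

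The H3K4me3 width over each domain was taken as the summed width of the peaks that overlap it. Its median was 4974.5 bp in untreated cells, 4906 bp at LPS 1 h and 5144.5 bp at LPS 4 h. The median log2 ratio was -0.016 [-0.021, -0.0099] for LPS 1 h over untreated and 0.019 [0.012, 0.025] for LPS 4 h over untreated. Narrow peaks had -0.0083 and 0.055. Both contrasts use the untreated list on which members were chosen, so they are descriptions only. The contrast of LPS 4 h over LPS 1 h takes its widths from the lists after LPS, although over regions placed and chosen by the untreated list. There the median was 0.035 [0.030, 0.041] in domains, 0.062 [0.057, 0.067] in narrow peaks and 0.064 over all H3K4me3 peaks. When only the bases inside each member were counted, the 4 h over 1 h median was 0.0021 and the median over untreated was negative at both times, at -0.034 for 1 h and -0.017 for 4 h. That measure cannot exceed the untreated width, and the median domain was already covered over 97.7% at 1 h and 98.8% at 4 h.

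Few domains were wider or narrower by 1.5 times or more, and the share was below the background in each case. At LPS 1 h, 13 were wider (0.966%, background 4.51%) and 15 narrower (1.11%, background 4.39%). At LPS 4 h, 48 were wider than in untreated cells (3.57%, background 10.2%) and 21 narrower (1.56%, background 3.04%). Between LPS 4 h and LPS 1 h, 39 were wider (2.90%, background 8.13%) and 7 narrower (0.520%, background 2.17%). A fixed ratio asks for more added bases at a wide peak than at a short one. At 33 of the 48 domains that were wider at LPS 4 h than in untreated cells, the LPS 4 h peak spanned at least 2 separate untreated peaks, so the domain had been joined with a neighbour. The same was true of 114 of the 347 narrow peaks that were wider.

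**Figure D4:**
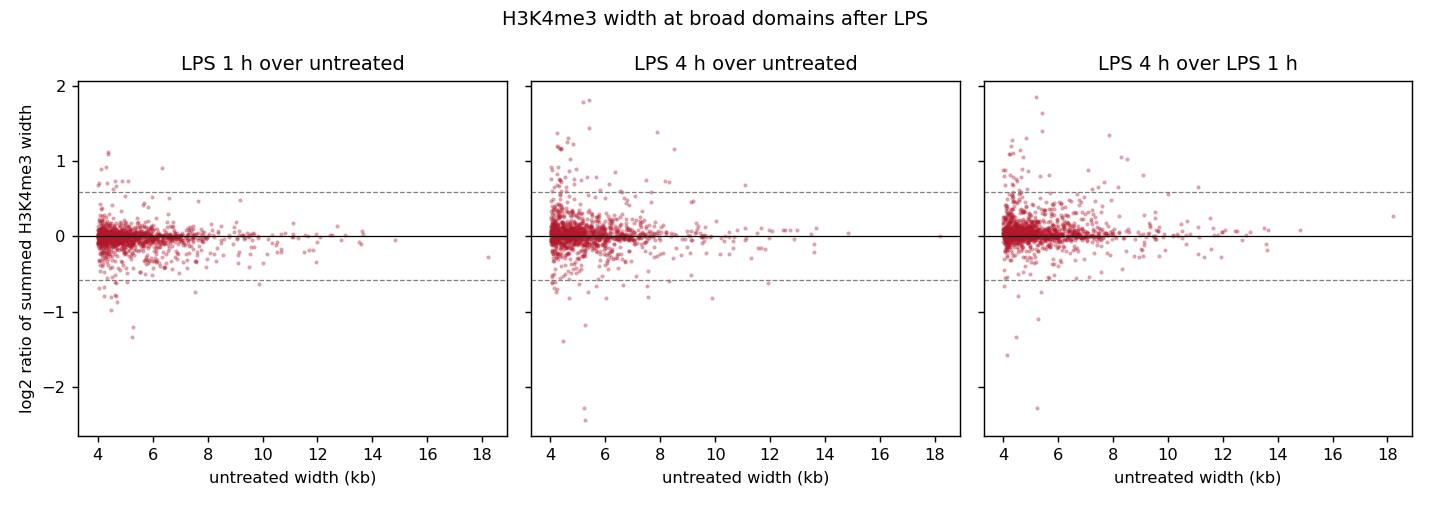
Log2 ratio of the summed H3K4me3 width over each broad domain (vertical axis) against its untreated width in kb (horizontal axis), with 1 point per domain. Panels show LPS 1 h over untreated, LPS 4 h over untreated and LPS 4 h over LPS 1 h, and dashed lines mark a ratio of 1.5. Most points lie between the dashed lines, and those far above them are more frequent at LPS 4 h, where 48 domains were wider against 21 narrower.

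The 5 largest width ratios of LPS 4 h over LPS 1 h were all at places where the LPS 4 h peak spanned at least 2 peaks of the LPS 1 h list and of the untreated list. The first was on chromosome 12 at 88221500 to 88226687. The summed H3K4me3 width there was 5188 bp in untreated cells, 4970 bp at LPS 1 h and 17869 bp at LPS 4 h, with H3K27ac and H3K79me2 over 100% of the member in all 3. Next came chromosome 1 at 132978753 to 132984166, with 5414, 6111 and 19028 bp in the same order. At each of these places the LPS 4 h peak held 2 members, so its width is that of both broad domains and the stretch between them. H3K36me3 covered 4.62%, 36.7% and 53.3% of the chromosome 1 member at the same times, and H3K36me2 10.2%, 38.0% and 39.4%. On chromosome 11 at 59354378 to 59359778 the widths were 5401, 5560 and 14605 bp, while H3K4me1 covered 100%, 38.9% and 30.3%. The strongest narrowing, beside the chromosome 2 and chromosome 9 domains above, was on chromosome 5 at 120960615 to 120964748, with 4134, 7665 and 2561 bp.

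More regions were broad at LPS 4 h than before. Peaks of at least 4000 bp numbered 1346 in the untreated list, 1362 at LPS 1 h and 1716 at LPS 4 h. Of the 1716, 490 overlapped no untreated peak of that width. Before LPS, 319 of these 490 (65.1%) were already at 3000 to under 4000 bp, 120 at 2000 to under 3000 bp, 45 were under 2000 bp and 6 had no peak. Their median width was 4521.5 bp at LPS 4 h and 3408.5 bp in untreated cells. The LPS 4 h list also covered more in total, with 41.4 Mb against 38.3 Mb untreated, and its highest −log10 q, as deposited by the authors, was 410.2 against 348.4. The part of these list-wide differences in the count was not tested.

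H3K27ac over the domains stayed near complete after LPS. Both LPS times are set against the same untreated list, here and for the other marks. Mean coverage was 95.2% in untreated cells, 93.7% at LPS 1 h and 95.8% at LPS 4 h. By at least 25 percentage points, 21 domains were higher at 1 h (1.56%, background 2.77%) and 34 lower (2.53%, background 8.79%). At 4 h 27 were higher (2.01%, background 5.74%) and 12 lower (0.892%, background 4.94%). A region already covered in full cannot gain, which limits the first of these shares. The LPS 1 h acetylation list covered 73.1 Mb against 83.6 Mb in untreated cells, and its part in the lower values at 1 h was not tested.

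The largest gains in H3K27ac could only arise at domains with little of it before LPS, since coverage ends at 100%. On chromosome 10 at 36856679 to 36861323, H3K27ac covered 0% in untreated cells, 30.2% at LPS 1 h and 78.9% at LPS 4 h, and H3K27me3 covered 87.4%, 87.9% and 76.0%. On chromosome 15 at 61815234 to 61819865, H3K27ac covered 20.5%, 72.8% and 95.2%, with no H3K27me3 and no H3K79me2 at any time and no PU.1 summit. On chromosome X at 45693689 to 45698862 the H3K27ac values were 16.5%, 32.0% and 72.9%. The largest loss at 1 h was on chromosome 8 at 13199192 to 13203351, where H3K27ac covered 78.0%, 8.94% and 62.5%. At 4 h it was on chromosome 13 at 48964721 to 48969128, with 96.3%, 64.1% and 50.7%.

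H3K79me2 covered more of the broad domains after LPS. Mean coverage was 61.1% in untreated cells, 62.7% at LPS 1 h and 66.0% at LPS 4 h. The gain over untreated averaged 1.67 points [1.23, 2.12] at 1 h and 4.93 points [4.36, 5.50] at 4 h, against 1.01 and 2.97 points in narrow peaks. Narrow peaks started far lower, at a mean of 16.5%. By the 50% call, domains went from 70.1% untreated to 74.2% at 4 h, and narrow peaks from 15.8% to 20.2%. The difference between the groups by that call was 54.3 points untreated and 54.0 at 4 h. By at least 25 points, 39 domains were higher at 1 h (2.90%, background 2.29%) and 9 lower (0.669%, background 1.06%). At 4 h 86 were higher (6.39%, background 4.06%) and 9 lower (0.669%, background 0.72%). The H3K79me2 lists as a whole covered 101.4, 107.8 and 110.8 Mb in the same order of conditions, and their part in this gain was not tested.

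H3K27me3 differed little. Mean coverage of domains was 1.43% in untreated cells, 1.32% at LPS 1 h and 1.26% at LPS 4 h. Just 1 domain was higher by 25 points at 1 h (0.0743%, background 0.803%) and 2 were lower (0.149%, background 1.36%). At 4 h 1 was higher (0.0743%, background 1.21%) and 4 were lower (0.297%, background 1.27%). With 65 domains that H3K27me3 touched at all in untreated cells, few could lose it.

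H3K4me1 covered less of the domains after LPS, with means of 51.4%, 46.4% and 47.5% in untreated, LPS 1 h and LPS 4 h cells. At 1 h 11 domains were higher by at least 25 points (0.817%, background 3.39%) and 78 lower (5.79%, background 8.9%). At 4 h 37 were higher (2.75%, background 4.71%) and 92 lower (6.84%, background 7.73%). Narrow peaks had means of 85.2%, 80.1% and 82.9%. Losses of this size were thus not more frequent in domains than among all peaks. Domains had less to lose, as untreated coverage over all peaks averaged 73.1%. The mean change at 1 h was -4.98 points in domains, -5.09 in narrow peaks and -4.66 over all peaks. At 4 h it was -3.95 points [-4.71, -3.19] in domains, -2.32 [-2.99, -1.65] in narrow peaks and -2.38 over all peaks.

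H3K36me2 covered more, with means of 9.18%, 15.2% and 16.3% of each domain, against 6.99%, 10.5% and 14.3% of narrow peaks, and was higher in the end pieces, at 17.9%, 26.7% and 28.7%. The gain over untreated at 4 h averaged 7.17 points in domains, 7.32 in narrow peaks and 8.06 over all H3K4me3 peaks. At 1 h 121 domains were higher by at least 25 points (8.99%, background 6.23%) and 10 lower (0.743%, background 1.44%). At 4 h 149 were higher (11.1%, background 8.84%) and 11 lower (0.817%, background 1.03%). The H3K36me2 lists covered 281.1, 320.5 and 348.8 Mb of the genome in the same order, and their part in this was not tested. H3K36me3 covered 15.4%, 14.5% and 14.7% of the domains on average.

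With flavopiridol the dip of H3K4me1 in the middle of broad domains was shallower in the deposited lists. H3K4me1 covered 77.6% of domains on average after flavopiridol for 1 h, against 51.4% in untreated cells, and 70.1% after flavopiridol and LPS 4 h, against 47.5% after LPS 4 h without the drug. In the middle pieces the means were 69.0% against 33.6%, and 61.6% against 30.4%. Narrow peaks had 88.9% with the drug against 85.2% without, and 80.1% against 82.9% under LPS 4 h. Without LPS, 661 domains were higher by at least 25 points with the drug (49.1%, background 19.1%) and 12 lower (0.892%, background 5.45%). Under LPS 4 h 583 were higher (43.3%, background 18.2%) and 27 lower (2.01%, background 11.1%).

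These drug differences did not hold for strongly called peaks. When only H3K4me1 peaks with a deposited −log10 q of at least 5 were kept, coverage of domains was 6.28% with flavopiridol against 33.8% in untreated cells, and 1.26% against 29.3% under LPS 4 h, so the sign turned. Peaks of that strength were 12.8% of the flavopiridol list against 54.4% of the untreated one, and 4.02% against 53.0% under LPS 4 h. The highest −log10 q was 36.2 with flavopiridol against 67.2 in untreated cells. Narrow peaks also had less room to gain. Among regions where H3K4me1 was not called in untreated cells, it was called with the drug at 505 of 686 domains, or 73.6% [70.2, 76.8], at 69.1% [66.2, 71.8] of 1029 narrow peaks and at 51.0% [49.4, 52.6] of 3612 intermediate peaks. Under LPS 4 h it was called with the drug at 436 of 760 such domains, or 57.4% [53.8, 60.8], at 58.2% [55.4, 61.0] of 1200 narrow peaks and at 43.2% [41.7, 44.7] of 4114 intermediate peaks. These regions were chosen for low values in the list without the drug, and their coverage there still differed. Without LPS it averaged 32.1% in such domains, 14.4% in narrow peaks and 31.5% in intermediate peaks. With the drug it was 66.6%, 68.7% and 60.9%. Under LPS 4 h it was 29.4%, 14.7% and 29.6% without the drug, and 58.5%, 58.9% and 54.1% with it. A part of library strength in the drug difference was not tested.

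**Figure D5:**
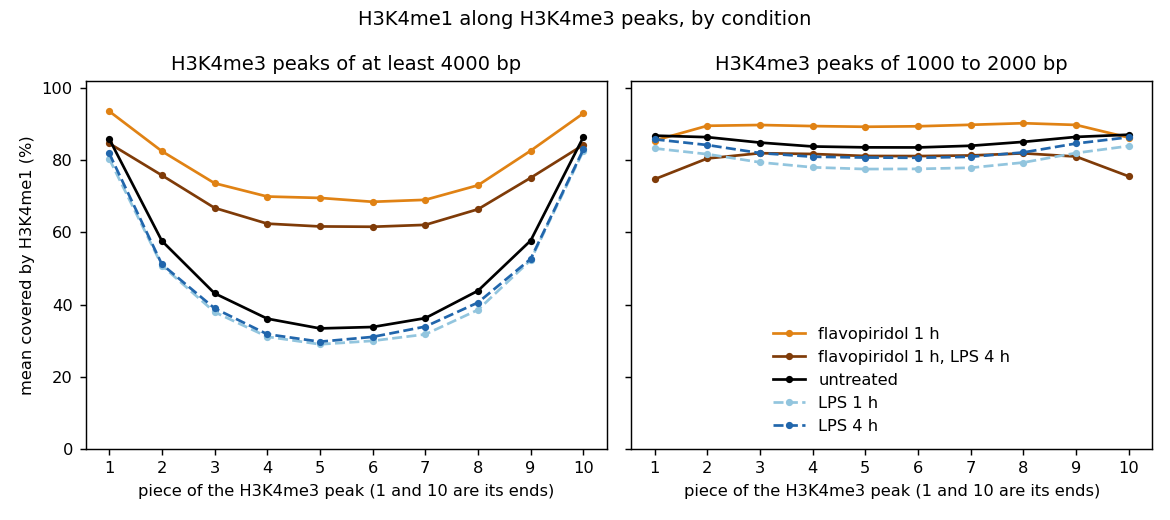
Mean coverage by H3K4me1 (vertical axis, percent) of each of 10 equal pieces of the H3K4me3 peaks (horizontal axis, 1 and 10 are the ends), for the 1346 broad domains at left and the 6211 peaks of 1000 to 2000 bp at right. Lines are 1 library each. In domains the middle pieces are at 69.0% with flavopiridol and 33.6% in untreated cells.

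H3K36me2 went in different directions in the 2 flavopiridol lists. It covered 22.6% of domains with flavopiridol against 9.18% in untreated cells, but 12.0% with flavopiridol and LPS 4 h against 16.3% with LPS 4 h alone. These differences were 13.4 and -4.32 points in domains. The signs were the same in narrow peaks (4.57 and -7.81 points) and over all H3K4me3 peaks (4.15 and -10.0 points). Without LPS, 326 domains were higher by at least 25 points (24.2%, background 8.47%) and 4 lower (0.297%, background 3.45%). Under LPS 4 h 51 were higher (3.79%, background 2.08%) and 130 lower (9.66%, background 11.7%). The highest −log10 q of these flavopiridol lists was 10.6 and 8.55, against 22.3 in untreated cells and 38.6 at LPS 4 h.

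The authors' segmentations into 27 chromatin states give the same regions as runs of 200 bp steps. H3K4me3 was among the marks the states follow, so state shares in members are a description. State 10, whose steps genome-wide were covered 100.0% by H3K4me3, 99.6% by H3K27ac, 98.5% by H3K79me2 and 29.4% by H3K4me1, held 29.3% of domain length, against 5.11% of narrow-peak length. State 9, with H3K27ac at 80.1%, H3K79me2 at 99.3% and H3K4me1 at 96.0%, held 16.8% against 5.12%. State 23, with H3K4me3 and H3K27ac but 14.4% H3K79me2, held 26.1% against 33.0%, and state 24, with H3K4me1 at 99.3% beside them, 9.87% against 18.1%. State 22, with H3K27ac at 39.6%, held 3.11% against 12.8%. The median domain was made up of 5 different states and the median narrow peak of 2, a count that does not allow for the larger number of steps in a domain.

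State 10 held 32.1% of domain length at LPS 1 h and 34.5% at LPS 4 h, and 6.36% and 7.06% of narrow-peak length. Of 35605 steps in domains, 26.4% had another state at LPS 1 h than in untreated cells and 28.1% at LPS 4 h, against 33.4% and 33.5% of the 39976 steps in narrow peaks. The most frequent move at LPS 4 h was from state 9 to state 10, with 1365 steps against 697 in reverse, and then from state 23 to state 10, with 1267 against 295. At LPS 1 h the same moves took 1195 steps against 640 and 836 against 445.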

How the data were processed

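RAW264.7 ChIP-seq peak lists were used as deposited, 25 of histone marks and 1 of PU.1. Per the submitters' processing notes, the aligner was Bowtie 1.0.1, the build mm9 and the peak caller MACS2. Its version, settings and control, pooling and read numbers: not given in the sources used here. Depth is thus unknown. The deposited fold enrichment (a ratio to background from the caller) and the −log10 q are the authors' values. Both were used only to describe lists and to filter peaks. The authors also deposited segmentations in 200 bp steps, of which the 3 with 27 states were used and the one with 18 states was not. The deposited PU.1 list gives a summit position per peak (107962 summits in 99565 distinct intervals).

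Peaks on chromosomes 1 to 19 and X were kept. Coverage is the share of a region's bases under the peaks of a mark, and a mark was called at 50% or more. For positions along a region, its length was cut into 10 equal pieces. Widths after LPS are sums over peaks that overlap a member by at least 1 bp. Counts of members still at 4000 bp use the single peak with the longest overlap. Shares have Wilson intervals, differences of shares Newcombe intervals, medians order-statistic intervals, PU.1 densities exact Poisson intervals, and mean differences 1.96 standard errors over regions, all at 95%. The interval tools were tested on simulated data. The members and comparisons were chosen with earlier results of these data known. Regions named are the 10 widest, the 5 nearest either side of 4000 bp, the extremes in PU.1 density, H3K27me3, H3K27ac and LPS 4 h over 1 h width, and the 3 largest H3K27ac gains and losses at each LPS time. Of these, those that show most are printed. Gene names and sequences are not given, since no mm9 genome or annotation was used here. Alternatives were any overlap, the central 1000 bp, a −log10 q of at least 5, other width limits, peaks merged within 1 kb, segments of at least 400 bp and all sequences. Chosen after seeing the data were the flavopiridol alternatives, the regions without H3K4me1 and the count of joined peaks. Scripts ran in Python 3.11.15 with numpy 2.4.6, pandas 2.3.3, scipy 1.17.1 and matplotlib 3.10.9.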

Additional observations from a re-analysis of the deposited data

Results flagged for a closer look

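Mean H3K27ac coverage of broad domains differed from untreated in opposite directions at the LPS times, by -1.59 percentage points at 1 h and 0.551 points at 4 h. The 4 h value was 0.0123 points in domains of at least 5000 bp and -1.66 points when only H3K27ac peaks with a −log10 q of 5 or more were kept, so that both times were then lower than untreated. The median log2 ratio of summed H3K4me3 width over untreated did so too, at -0.016 at 1 h and 0.019 at 4 h. With bases counted inside the member only, a measure that cannot exceed the untreated width, it was negative at both times, at -0.034 and -0.017. Each value compares single libraries, and the difference between the times was not tested.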

How the results depend on the processing

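No paired analysis was possible because each mark has 1 library per condition. Each of 20 results was recomputed under its alternatives, 95 values in all. Of these 47 stayed within the interval of the reported value, 37 left it with the same sign and 11 turned sign. The 47 include every value with peaks merged within 1 kb and the member count over all sequences. Those equalled the reported values because the alternative left the members as they were, so they say nothing on stability. The cause of each move was not tested. Depth, which limits which peaks are called, is unknown, and −log10 q filters compare lists of unequal strength.

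Differences of broad domains minus peaks of 1000 to 2000 bp, in percentage points, moved as follows. For H3K27ac (reported 14.8) they were 10.7 with any overlap, 11.9 over the central 1000 bp and 25.3 when mark peaks had to reach a −log10 q of 5. For H3K79me2 (54.3) they were 62.3 with any overlap, 43.7 with that q, 46.3 for members of at least 3000 bp and 58.4 for members of at least 5000 bp. For H3K27me3 (-7.03) they were -8.99 with any overlap and -0.940 with that q. For H3K4me1 (-34.4) they were 5.52 with any overlap, -50.5 over the central 1000 bp, -20.4 with that q, -45.4 from 3000 bp and -28.1 from 5000 bp. For H3K36me2 (-3.04) they were 29.0 with any overlap, 0.440 over the central 1000 bp and -0.280 with that q. For H3K36me3 (8.72) they were 49.9 with any overlap, 11.2 over the central 1000 bp, 5.26 with that q, 3.92 from 3000 bp and 13.7 from 5000 bp. Against intermediate peaks, over 2000 and under 4000 bp wide, the values were 1.56 for H3K27ac, 24.5 for H3K79me2, -0.267 for H3K27me3, 7.07 for H3K4me1 and 0.395 for H3K36me2. The H3K4me1 value is by the 50% call, while its mean coverage was lower in domains than in intermediate peaks. PU.1 density differed by -0.229 summits per kb over the central 1000 bp, by -0.109 with distinct intervals and by 0.0242 against intermediate peaks. The share of length in state 10 differed by 24.2 points, and by 21.6 from 3000 bp. No untreated H3K4me3 peaks lay within 1 kb of each other, so merging left the 1346 members as they were, and all sequences gave the same members.

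Counting only bases inside the member, the median log2 width ratio was -0.034 for LPS 1 h over untreated, -0.017 for LPS 4 h over untreated and 0.0021 for LPS 4 h over 1 h. For LPS 4 h over untreated it was 0.025 from 3000 bp and 0.0091 from 5000 bp, and for LPS 4 h over 1 h it was 0.028 from 5000 bp. The H3K27ac difference at LPS 1 h was -0.207 points over the central 1000 bp and -4.68 under the same q limit. At LPS 4 h it was -1.66 with that q and 0.0123 from 5000 bp. With that q the H3K79me2 difference was 3.72 points at 1 h and 6.21 at 4 h, and that of H3K27me3 at 4 h was 0.0251. The H3K4me1 difference with flavopiridol was 26.1 points without LPS and 22.6 under LPS 4 h. It was -27.5 and -28.0 with that q, and 35.5 and 31.2 over the central 1000 bp.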
